A study of Homo sapiens with 20 samples.

Results

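Eph receptors are receptor tyrosine kinases, and ephrins are the ligands that bind them on neighbouring cells. The 10 genes described here are 7 receptors (EPHA1, EPHA2, EPHA4, EPHB2, EPHB3, EPHB4 and EPHB6) and 3 ephrins (EFNA1, EFNB1 and EFNB2), out of 26038 gene symbols in the count table. They were chosen by symbol, and the set was drawn up because EPHB2 was among the genes that rose most in the libraries labelled NFS1 knockdown relative to the NC libraries. The contrast of NFS1 against NC therefore selected the set, and the members' values in it are given as a description with no test.

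The RNA came from MHCC-97H, an established human hepatocellular carcinoma line, in 4 groups of 5 libraries. All cultures spent 15 minutes in a water bath and were then returned to an incubator for 24 hours. R-37 was wild type after a bath at 37 °C, and R-47 was wild type after a bath at 47 °C, which models sublethal heating. NC, also labelled wild type, and NFS1, labelled as a knockdown of NFS1 (a cysteine desulfurase of iron-sulfur cluster assembly) made with shRNA, both had the bath at 47 °C, so neither has an unheated counterpart. Whether the 5 libraries of a group are separate cultures is not stated in the labels, and the p-values reflect only how these libraries vary, which may be technical.

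Ephrin-A ligands are tethered to the membrane by a lipid anchor and mainly bind EphA receptors, whereas ephrin-B ligands span the membrane and mainly bind EphB receptors. Contact between cells sets off a forward signal through the receptor's kinase and a reverse signal in the cell bearing the ligand, and both act on the actin skeleton, adhesion and cell movement. EPHA2 and EFNA1, EPHB4 and EFNB2, and EPHB2 or EPHB3 and EFNB1 are well-known pairs, the last acting in cell sorting in the gut epithelium, and EPHA2 and EPHB4 are common in carcinoma cells.

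The libraries held from 32219946 to 39689939 gene counts each. Levels below are CPM, counts scaled to library size over the 20 libraries together, unless FPKM, which also divides by gene length, is named. The NFS1 gene itself had 72.7 CPM in NC and 66.5 CPM in the libraries labelled NFS1 knockdown, a log2 fold change of -0.11 that did not pass the test (edgeR adjusted p = 0.114), although the 5 libraries so labelled were all below the 5 of NC. Among 9 hepatocyte and liver cancer markers, HNF4A ranged from 45.6 to 96.2 CPM between groups. ALB averaged 14.1 CPM in R-37 and 0.633 CPM in NFS1, and APOA2 and GPC3 were at or near 0 in every group. Leukocyte markers summed to at most 0.409 CPM. Of the endothelial markers, CDH5 had no count in R-47, NC or NFS1, while PECAM1 and KDR were present at 12.5 to 54.8 CPM. NFS1 replicate 4 and R-37 replicate 5 lay farthest from the other libraries of their groups. NFS1 replicates 2 and 3 stood apart in the heat shock gene HSPA6, at 251 and 246 CPM. The group's other libraries had 22.3 to 83.0 CPM. HSPA6 reads may be shared with near-identical copies. The mean of HSPA6 was 0.742 CPM in R-37, 1.13 in R-47, 19.0 in NC and 132 in NFS1. Its NC libraries ran from 5.41 to 39.0 CPM. The part of these HSPA6 differences in the members' values was not tested. In these bulk samples, fewer cells expressing a gene and less RNA per cell cannot be told apart.

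The promoters of EPHB2 and EPHB6 are printed because EPHB2 had the widest range of levels among the well-counted members and EPHB6 alone held matches to the motifs searched. All 10 members matched a RefSeq promoter of GRCh38.p14, which runs from 250 bases before to 50 bases after the start site, 300 bases in all. Capitals mark CG dinucleotides in EPHB2 and matches to GAANNTTC, a short form of the heat shock element, in EPHB6.
EPHB2: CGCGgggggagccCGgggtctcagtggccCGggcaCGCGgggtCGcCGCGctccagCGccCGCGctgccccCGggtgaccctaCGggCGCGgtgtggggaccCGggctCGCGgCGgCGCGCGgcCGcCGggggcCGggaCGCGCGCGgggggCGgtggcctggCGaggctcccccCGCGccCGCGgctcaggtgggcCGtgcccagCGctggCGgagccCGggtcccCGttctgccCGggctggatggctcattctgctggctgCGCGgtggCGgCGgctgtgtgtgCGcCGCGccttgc
EPHB6: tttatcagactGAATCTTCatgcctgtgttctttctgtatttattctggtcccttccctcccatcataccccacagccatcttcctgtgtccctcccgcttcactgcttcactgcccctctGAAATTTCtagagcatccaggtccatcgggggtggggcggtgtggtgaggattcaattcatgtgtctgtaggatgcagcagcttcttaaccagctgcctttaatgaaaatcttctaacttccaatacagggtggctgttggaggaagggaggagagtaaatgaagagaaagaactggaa
The EPHB2 window is chr1:22710588-22710887 on the plus strand, at the start of a protein-coding gene annotated from 22710838 to 22921500. It is 83.0% G and C with 49 CG dinucleotides, against medians of 58.7% and 14 over all promoters. The EPHB6 window is chr7:142862506-142862805 on the plus strand and lies inside the annotated EPHB6 gene, which runs from 142855076 to 142871093. It is 48.0% G and C with 3 CG dinucleotides. On both strands, 3 motifs were searched. GAANNTTC, a short form of the heat shock element, occurs in 6.8% of 35116 promoters of the same length. TGANTCA, the AP-1 motif, occurs in 7.7%, and CTTTGAT, the TCF/LEF motif, in 2.6%. EPHB6 held GAATCTTC at position -239 and GAAATTTC at -129 from the start site, and none of these letters were found in the windows of the other 9 members. These are matches of letters only. Other arrangements of the heat shock element were not searched, so a window without a match may still hold one.

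Per unit of gene length, EPHA2 and EPHB4 made up most of the Eph receptor RNA in all 4 groups. Over the 10 receptor genes with values, the summed FPKM was 72.1 ± 6.41 in R-37, 71.9 ± 2.84 in R-47, 74.6 ± 1.97 in NC and 75.1 ± 7.41 in NFS1 (SD, n = 5 each). In FPKM, the sums therefore differed between groups by less than their spread within R-37 or NFS1. FPKM is scaled to the library total only. That scaling moved the median log2 fold change of all genes in NC against R-47 from 0.01 to 0.19. EPHA2 averaged 43.7 FPKM in R-47 and 46.8 in NC, but 198 and 186 CPM. The likeness of the receptor sums thus holds for FPKM and was not examined in CPM. EPHA2 took 54.3% of the sum in R-37 and 59.6 to 62.7% in the other groups. EPHB4 took 17.9% in R-47 and 23.2 to 28.2% elsewhere. The share of EPHB6 was 11.1% in R-37, 10.1% in R-47, 4.17% in NC and 6.24% in NFS1. EPHB2 was a small part of the summed FPKM throughout, at 2.51% in R-37, 3.02% in R-47, 0.151% in NC and 0.978% in NFS1. These shares rest on a gene length of 11.41 kb for EPHB2 against 4.23 kb for EPHB3. In R-47 both averaged 26.2 CPM, while EPHB3 took 8.11% of the sum.

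In FPKM, the ephrin pool, unlike the receptor pool, was smaller in the NC and NFS1 libraries. Summed over 8 ephrin genes it was 79.2 ± 5.61 FPKM in R-37, 71.0 ± 3.06 in R-47, 34.9 ± 2.95 in NC and 43.8 ± 6.21 in NFS1 (SD, n = 5 each). EFNB1 was the most abundant ephrin in every group, with 60.5% of the sum in R-37, 54.8% in R-47, 34.3% in NC and 32.2% in NFS1. EFNA1 took 14.8% in R-37, 15.7% in R-47, 18.9% in NC and 26.5% in NFS1. Its own mean level was 11.7, 11.2, 6.60 and 11.7 FPKM in that order. In CPM it was 20.3, 18.4, 9.52 and 16.4, so NFS1 matched R-37 in FPKM but had a lower mean than R-37 and R-47 in CPM. EFNB2, the partner of the abundant receptor EPHB4, reached at most 0.0366 FPKM in any library. FPKM values carry no scaling beyond the library total, and no test was made on them here.

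**Figure D1:**
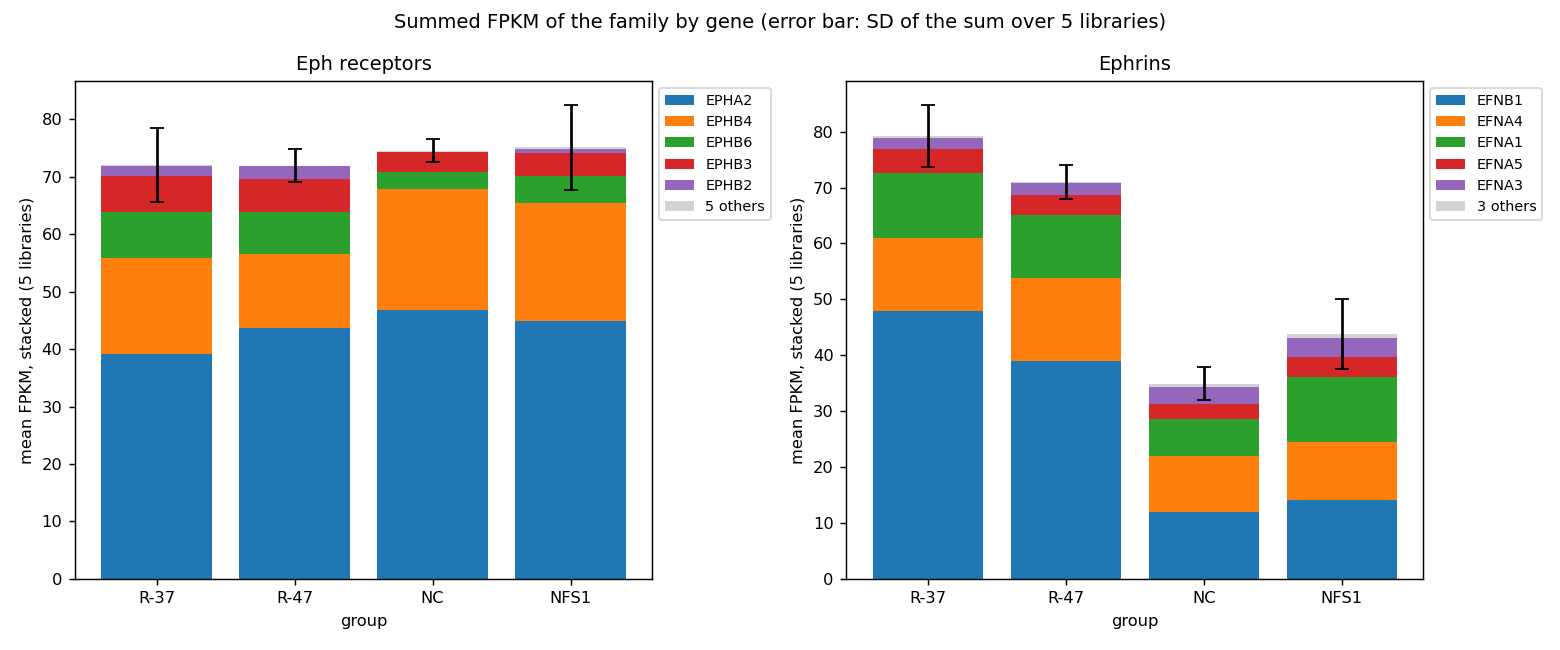
Stacked mean FPKM of the Eph receptors (left) and ephrins (right) in the 4 groups of 5 libraries; each colour is a gene and the error bar is the SD of the summed FPKM. The receptor sums lie between 71.9 and 75.1 FPKM, and the ephrin sums are 79.2 and 71.0 in R-37 and R-47 against 34.9 and 43.8 in NC and NFS1.

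After heating of the wild-type cells EPHB4, EFNB1 and EPHB6 were lower, and no member rose by the test. This contrast, R-47 against R-37, shares no library with the one that selected the set. Of the 10 members, 8 had enough counts to be tested, and 3 were lower and 0 higher by edgeR's quasi-likelihood test at an adjusted p under 0.05. Over all 14344 genes tested, 13.2% were lower and 11.9% higher. The median log2 fold change of the 8 members was -0.19, against -0.01 over all genes. At an unadjusted p under 0.05 in edgeR 1 of the 8, EPHB2, was higher, and DESeq2 called it higher while limma-voom called 0 higher.

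EPHB4, a receptor best known from vessel formation, had 92.3, 77.5, 83.3, 88.5 and 71.2 CPM in the R-37 libraries and 60.6, 61.8, 62.1, 57.1 and 58.1 CPM in the R-47 libraries. Every R-47 library was below every R-37 library. The log2 fold change was -0.46 (SE 0.07, edgeR adjusted p = 0.000161), and it stayed past the threshold under all 22 alternatives. EPHB4 was then higher in NC, at 82.8, 82.6, 87.4, 87.1 and 90.0 CPM, and NFS1 libraries had 90.4, 84.8, 79.4, 69.4 and 89.8 CPM. R-37, NC and NFS1 overlapped, so the R-47 libraries were the group apart for this receptor. Its gene lies on chromosome 7 from 100802565 to 100827523.

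EFNB1, a transmembrane ligand of the EphB receptors encoded on the X chromosome, was also lower in R-47. The R-37 libraries had 188, 167, 189, 189 and 153 CPM, and the R-47 libraries had 140, 130, 149, 127 and 135 CPM. The highest R-47 library lay just under the lowest R-37 library. The log2 fold change was -0.37 (SE 0.07, edgeR adjusted p = 0.000693) and was called under all 22 alternatives.

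EPHB6, a receptor whose kinase domain is inactive, fell by a smaller amount. It had 50.5, 45.1, 50.4, 48.1 and 41.5 CPM in R-37 and 43.0, 39.7, 42.3, 35.8 and 40.7 CPM in R-47. The groups overlapped through R-37 replicate 5, the lowest of its group. The log2 fold change was -0.22 (SE 0.07, edgeR adjusted p = 0.0269). The call was lost with scaling to library size alone (adjusted p = 0.115) and on log2 FPKM (0.118 to 0.184). It was also lost when R-37 replicate 3 or 4 or R-47 replicate 2, 4 or 5 was left out (0.0523 to 0.0746, edgeR).

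EPHB2, a receptor that repels cells bearing ephrin-B, was slightly higher on average after heating and just missed the threshold. It had 24.3, 21.2, 23.9, 24.8 and 20.9 CPM in R-37 and 25.8, 25.8, 29.6, 24.1 and 25.9 CPM in R-47. Of the R-47 libraries 4 lay above all of R-37 and 1 lay among them. The log2 fold change was 0.19 (SE 0.07, 95% interval 0.04 to 0.35, edgeR adjusted p = 0.0626). It passed under 9 of 22 alternatives, whose adjusted p ranged from 0.0106 to 0.22. Leaving out R-37 replicate 1 or replicate 4 was enough to bring it to 0.0405 or 0.0492.

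EPHA2, EPHB3, EFNA1 and EPHA1 did not pass the test on heating. EPHA2, the most abundant receptor here, had 212, 182, 200, 182 and 161 CPM in R-37 and 196, 191, 212, 189 and 200 CPM in R-47. Its log2 fold change was 0.08, with a 95% interval of -0.06 to 0.22 and an edgeR adjusted p of 0.376, and with offsets for gene length and GC content the sign turned, at -0.03. EPHB3, which acts with EPHB2 in the gut, averaged 29.4 ± 2.58 CPM in R-37 and 26.2 ± 1.99 CPM in R-47 (SD, n = 5; log2 fold change -0.16, edgeR adjusted p = 0.116). EFNA1, the main ligand of EPHA2, averaged 20.3 ± 0.448 and 18.4 ± 1.60 CPM (SD, n = 5; log2 fold change -0.14, edgeR adjusted p = 0.143). Across the tested genes with known transcript GC content, which are not independent replicates, log2 fold change on heating had a Spearman correlation of 0.39 with GC. The members other than EPHA4 and EFNB2 have transcripts of 55.6 to 62.2% GC against a median of 48.4%. With offsets for length and GC, EFNA1 (-0.31, edgeR adjusted p = 0.000813) and EPHB3 (-0.29, edgeR adjusted p = 8.18e-05) were called lower and EPHB2 (0.15, edgeR adjusted p = 0.0334) higher. EPHB3 was also called lower (-0.20, edgeR adjusted p = 0.0406) without R-37 replicate 5.

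EPHA1, EPHA4 and EFNB2 were near the limit of detection in R-37 and R-47. A count of 3, taken as the floor, is 0.082 to 0.104 CPM in these libraries. EPHA1 had 16, 8, 14, 22 and 11 counts in R-37 and 7, 10, 9, 2 and 14 in R-47 (log2 fold change -0.86, SE 0.44, edgeR adjusted p = 0.163). EPHA4, a receptor that binds ephrins of both classes, had 1 to 10 counts per R-37 library and 1 to 12 per R-47 library. EFNB2 had 1 to 4 and 0 to 7. Neither EPHA4 nor EFNB2 had enough counts for the fit, and no difference was detectable at this depth.

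**Figure D2:**
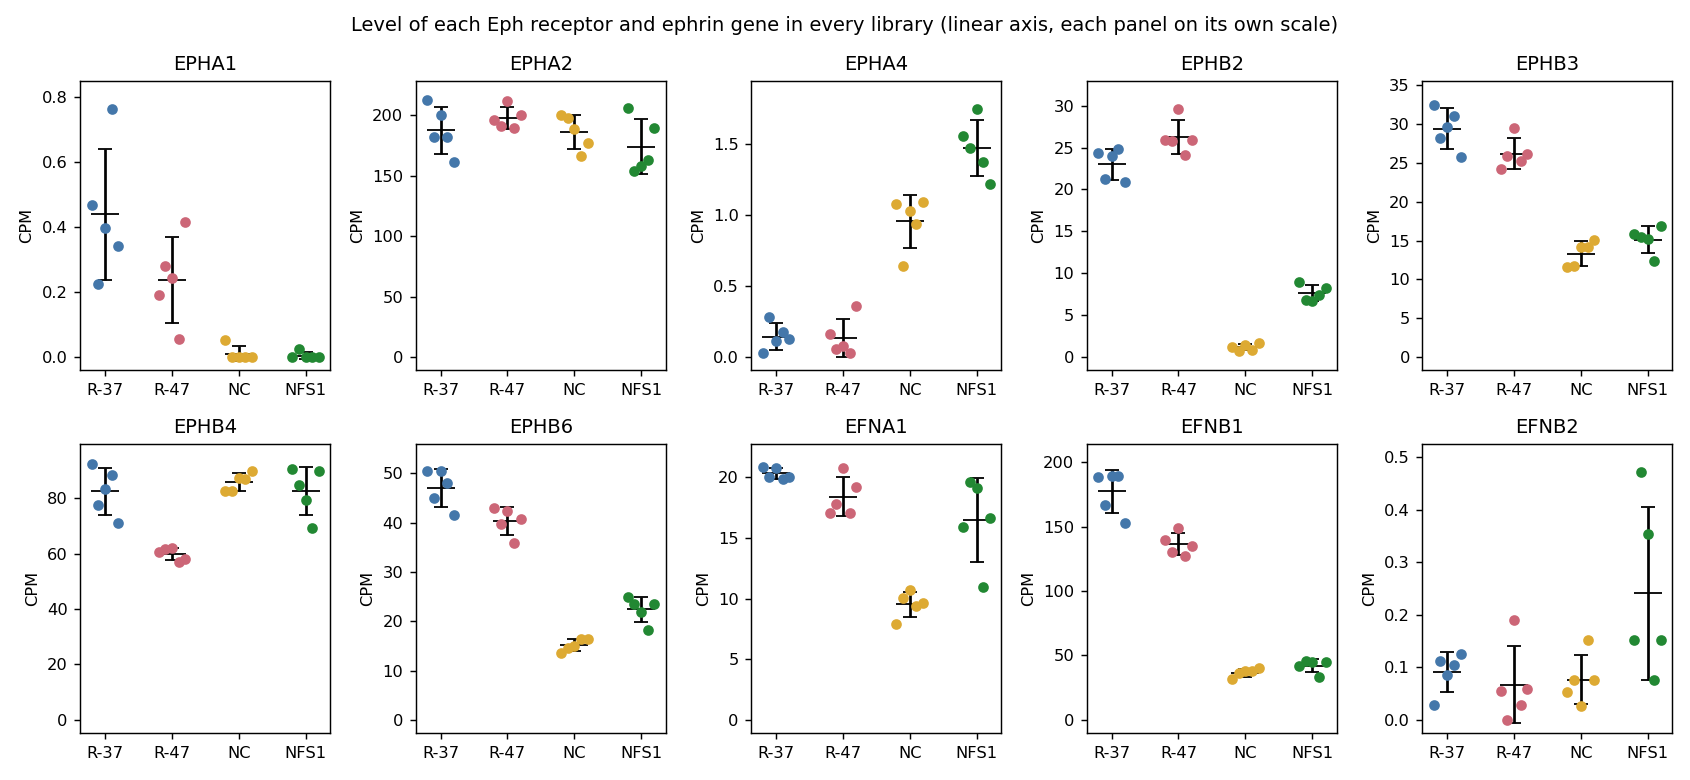
CPM of each member in every library (points) with the mean and SD of each group of 5 (bars), each panel on its own linear axis. EPHB2 sits at 20.9 to 29.6 CPM in R-37 and R-47, at 0.794 to 1.70 in NC and at 6.64 to 8.95 in NFS1, while EPHA2 overlaps across all 4 groups.

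NC and R-47 carry the same labels for genotype, temperature and recovery but belong to separate experiments, so experiment and group cannot be told apart. By the test, EPHB4 was higher in NC, and EFNB1, EPHB6, EPHB3 and EFNA1 were lower. These are 1 higher and 4 lower of 6 members, leaving out EPHB2 and EPHA4, which have no test here. Of all 15080 genes tested, 40.1% were higher and 39.6% lower, so a call in this contrast was common. The median log2 fold change of these 6 members was -0.95, against 0.01 over all genes. Genes outside the family differed widely too: the mesenchymal gene VIM averaged 10.3 CPM in the R-47 libraries against 217 in the NC ones. Of the hepatocyte and liver cancer markers, HNF4A (55.3 CPM in R-47 and 96.2 in NC) and AFP (4.0 and 5.17) had higher means in NC. ALB (5.10 and 0.849), TF (15.7 and 10.8), SERPINA1 (2.36 and 0.859) and APOA1 (0.579 and 0.403) had lower means in NC. TTR, APOA2 and GPC3 averaged at most 0.0501 CPM in either group. The part of these differences in the results below was not tested. NC was the control group of the selecting contrast, so EPHB2 has no test, and EPHA4 has none because it had enough counts for the fit only in NC, where it is high.

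EPHB2 differed most of the fitted members. The R-47 libraries had 24.1 to 29.6 CPM, and the NC libraries had 1.18, 0.794, 1.41, 0.884 and 1.70 CPM, from 45, 31, 55, 35 and 67 counts. The groups were far from overlapping. The NC mean was 21.8-fold lower on the fitted scale, a log2 fold change of -4.45 (SE 0.13).

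EFNB1 had 31.7, 36.4, 37.6, 37.9 and 40.03 CPM in NC, all far below the 127 to 149 CPM of R-47. Its log2 fold change was -1.88 (SE 0.06, edgeR adjusted p = 1.9e-17). EPHB6 had 13.7, 14.5, 14.9, 16.3 and 16.5 CPM in NC against 35.8 to 43.0 CPM in R-47, with no overlap (log2 fold change -1.40, edgeR adjusted p = 2.9e-14). EPHB3 had 11.6, 11.7, 14.1, 14.1 and 15.1 CPM in NC against 24.1 to 29.5 CPM (log2 fold change -0.97, edgeR adjusted p = 3.23e-10). EFNA1 had 7.88 to 10.7 CPM in NC against 17.1 to 20.8 CPM (log2 fold change -0.94, edgeR adjusted p = 1.39e-09). In each of these 4 genes every NC library was below every R-47 library. The share of all genes separated in this way was not counted, and 39.6% of all genes tested were called lower.

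The members that went the other way were EPHB4 and EPHA4. EPHB4 was higher in all 5 NC libraries than in any R-47 library, with a log2 fold change of 0.53 (SE 0.05, edgeR adjusted p = 8.57e-10). EPHA4 had 6, 2, 3, 1 and 12 counts in R-47 and 41, 25, 40, 37 and 43 counts in NC, which is 0.138 and 0.954 CPM on average, with no overlap. EPHA1 was near 0 in NC, with 42 counts over the R-47 libraries and 2 over the NC libraries, a ratio of 23.0 (exact 95% interval 5.99 to 196, counting error only). EPHA1 was too low for the main filter, and without a filter its edgeR adjusted p was 1.37e-05. EPHA2 had 200, 197, 188, 166 and 177 CPM in NC, overlapping R-47. Its log2 fold change was -0.08 (edgeR adjusted p = 0.143), which turned to 0.10 with scaling to library size alone or on log2 FPKM and to 0.01 with length and GC offsets. It passed (-0.11, edgeR adjusted p = 0.0371) without NC replicate 1.

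Between NC and NFS1, EPHB2, EFNA1, EPHB6 and EPHA4 were higher in every NFS1 library than in any NC library. These are 4 of the 8 members fitted. The same held for 10.5% of 15086 genes, and by edgeR 15.7% of them were higher and 12.5% lower. Nothing is read from the members' count, because this contrast selected the set. The NC libraries also enter the contrast with R-47, there as the first group and here as the reference, so a low level in NC lowers that fold change and raises this one.

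EPHB2 had 8.95, 6.86, 6.64, 7.40 and 8.25 CPM in NFS1, a mean of 7.62 ± 0.967 against 1.19 ± 0.374 in NC (SD, n = 5). The fitted difference was 6.45-fold (log2 fold change 2.69, SE 0.18). The order of its group levels was R-47, R-37, NFS1 and NC, in which R-47 and R-37 overlapped and each other neighbour was separate. The NFS1 libraries stayed below 9 CPM, while the lowest R-37 library had 20.9 CPM.

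EFNA1 had 15.9, 19.6, 19.1, 10.9 and 16.6 CPM in NFS1 against 7.88, 10.04, 10.7, 9.35 and 9.65 CPM in NC (log2 fold change 0.81, SE 0.14). Replicate 4 of NFS1 was barely above the highest NC library, and replicates 2 and 3 were the highest. Those 2 libraries are also the ones with high HSPA6, and without them the log2 fold change was 0.61. EPHB6 had 24.96, 23.4, 21.9, 18.2 and 23.5 CPM in NFS1, again lowest in replicate 4, with a log2 fold change of 0.58 (SE 0.09). EPHA4 had 61, 59, 69, 54 and 48 counts, a mean of 1.47 ± 0.197 CPM against 0.954 ± 0.186 in NC (SD, n = 5; log2 fold change 0.64, SE 0.19).

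The other members overlapped between NC and NFS1. EFNB1 had 41.8, 46.0, 45.2, 33.1 and 44.7 CPM in NFS1, where only replicate 4 lay within the NC range (log2 fold change 0.22, SE 0.09; 0.13 without replicates 2 and 3). EPHB3 averaged 15.1 ± 1.69 CPM against 13.3 ± 1.57 (SD, n = 5; log2 fold change 0.20). EPHB4 and EPHA2 had log2 fold changes of -0.04 and -0.08. EPHA2 was lowest in NFS1 replicates 2 and 3, at 154 and 158 CPM, and its log2 fold change was 0.01 without them. EFNB2 had 6, 19, 14, 3 and 6 counts in NFS1 and 1 to 6 in NC, so its 2 highest libraries were again replicates 2 and 3. EPHA1 had 1 count in NFS1 and 2 in NC in all. Fibroblast and stellate markers summed to 22.3 to 27.8 CPM in NC and 34.1 to 56.2 CPM in NFS1, mostly LUM, and 3 of the 5 had a mean of at least 1 CPM in either group. The part of these markers in the members' values was not tested.

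EFNB1, EPHB6, EPHB3 and EFNA1 shared 1 order of mean CPM, R-37, R-47, NFS1 and NC from high to low. In FPKM, EFNA1 did not keep this order, at 11.7 in NFS1 and in R-37 and 11.2 in R-47. Among neighbours in the order by CPM, NFS1 and NC overlapped for EFNB1 and EPHB3, and R-37 and R-47 for EPHB6, EPHB3 and EFNA1. For EFNA1, R-47 and NFS1 overlapped as well. EFNA5, an ephrin that is not a member, had the same order of means, at 42.0, 34.8, 28.6 and 23.2 CPM. The share of all genes with this order was not counted. The order of NFS1 and NC comes from the contrast that selected the set.

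**Figure D3:**
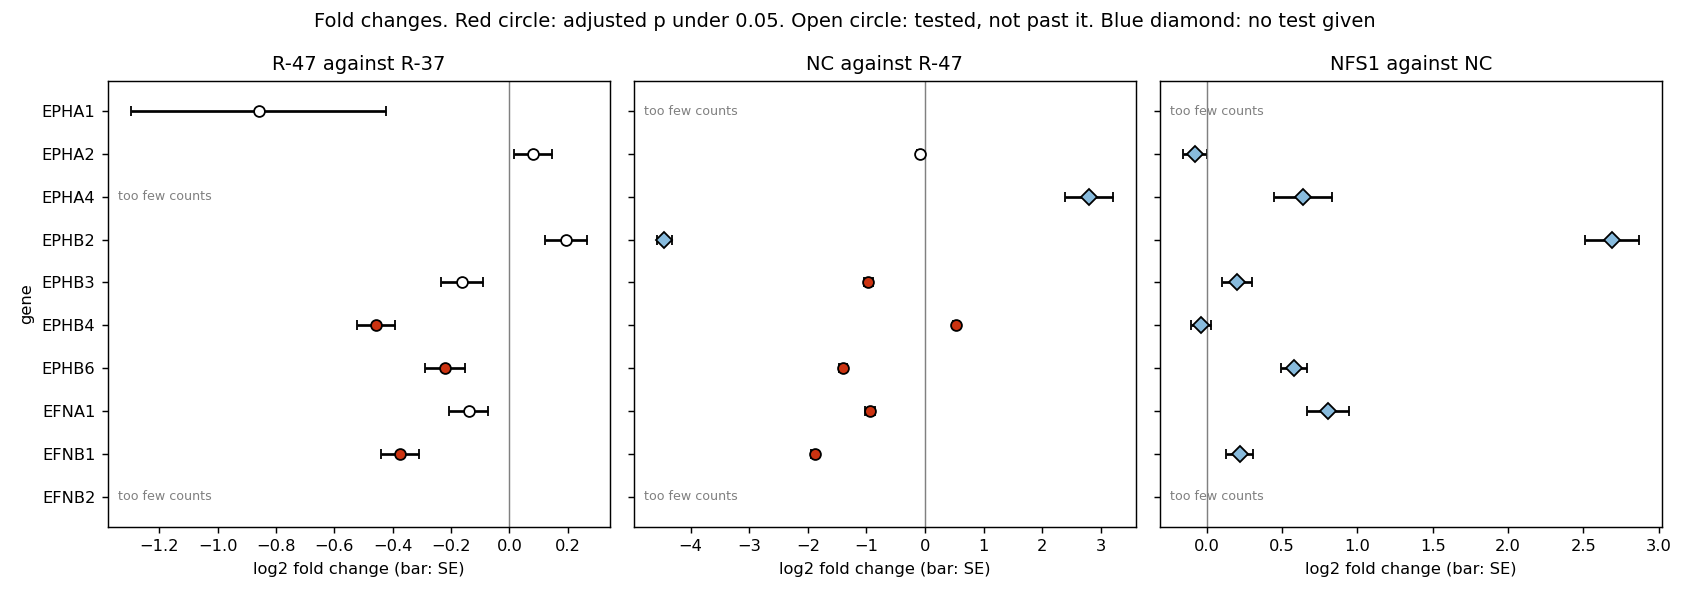
Log2 fold change of each member with its SE (bars) in the 3 contrasts, with a separate horizontal scale for each; red circles passed an adjusted p under 0.05, open circles did not, and blue diamonds have no test given. EPHB2 lies at 0.19, -4.45 and 2.69, and EPHB4 at -0.46, 0.53 and -0.04.

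The wider family has 22 genes, of which 12 are not members. EPHA3, EPHA5, EPHA7 and EPHA8 were not analysed here. EPHA6, EPHA10, EPHB1 and EFNB3 had group means of at most 0.403 CPM. EFNA5, a lipid-anchored ephrin, was also lower after heating, at 34.8 against 42.0 CPM (log2 fold change -0.27, edgeR adjusted p = 0.00399). That call was lost on unfiltered log2(FPKM + 1) (-0.15, limma adjusted p = 0.057). EFNA5 was lower again in NC than in R-47 (-0.58, edgeR adjusted p = 7.02e-08). In NFS1 it was higher than in NC, at 28.6 against 23.2 CPM (0.32, edgeR adjusted p = 0.0408). NFS1 replicate 4 was the highest, at 36.5 CPM, and without it the difference was 0.22 (edgeR adjusted p = 0.0476). The call was lost without NC replicate 3, 4 or 5 or NFS1 replicate 1 or 5 (edgeR adjusted p from 0.0544 to 0.113). With length and GC offsets the difference was 0.15 (edgeR adjusted p = 0.13). It was 0.31 with a replicate block (edgeR adjusted p = 0.0751) and 0.25 on unfiltered log2(FPKM + 1) (limma adjusted p = 0.087). EFNA4 was lower in NC than in R-47 (11.6 against 19.8 CPM, -0.76, edgeR adjusted p = 1.43e-08). EFNA2 was higher there (2.48 against 0.868 CPM, 1.52, edgeR adjusted p = 1.14e-06), as was EFNA3 (4.96 against 4.06 CPM, 0.30, edgeR adjusted p = 0.0367). The EFNA3 call was lost without R-47 replicate 1, 2, 3 or 5 or NC replicate 2, 3 or 4 (edgeR adjusted p from 0.0511 to 0.0892). It was also lost without a filter (edgeR adjusted p = 0.0648) and in a fit of all 20 libraries (edgeR adjusted p = 0.179). EFNA2, EFNA3 and EFNA4 did not pass in the other contrasts, except that EFNA2 passed on heating without R-37 replicate 2 (-0.82, edgeR adjusted p = 0.0351) or with the offsets (-0.85, edgeR adjusted p = 0.0113), and EFNA3 in NFS1 against NC without NFS1 replicate 4 (0.35, edgeR adjusted p = 0.0371).

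Of 55 genes that carry or end Eph and ephrin signals, 50 were tested in each contrast. On heating 5 were higher (10%) and 10 lower (20%), against 11.9% and 13.2% of all genes, with a median log2 fold change of -0.08 against -0.01 over all genes. With library size alone the balance turned, with 11 higher and 2 lower. The number lower was 2 on log2 FPKM, 3 with a replicate block, and 3 to 6 when R-37 replicate 2, 4 or 5 or R-47 replicate 2, 3, 4 or 5 was left out. The smallest adjusted p among the higher genes belonged to PICK1, a PDZ protein that binds ephrin-B tails (16.7 against 11.2 CPM, log2 fold change 0.59, edgeR adjusted p = 0.000622). It was followed by SRC, a kinase downstream of both receptors and ligands (327 against 267 CPM, 0.30, edgeR adjusted p = 0.00103). Lower were CHN1, a Rac GTPase-activating protein that acts after EPHA4 (11.7 against 15.6 CPM, -0.41, edgeR adjusted p = 0.000638), and GRIP1, a PDZ scaffold of ephrin-B (11.5 against 14.7 CPM, -0.34, edgeR adjusted p = 0.00248).

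In NC against R-47, 13 of the 50 were higher (26%) and 30 lower (60%), against 40.1% and 39.6% of all genes. The median log2 fold change of the 50 was -0.25, against 0.01 over all genes. The excess of lower genes depended on the scaling. With library size alone 18 were higher and 23 lower, and on log2 FPKM 18 were higher and 21 to 23 lower. INPPL1, a lipid phosphatase that binds EPHA2, had 351 CPM in NC and 167 CPM in R-47 (1.08, edgeR adjusted p = 1.32e-15). CBL, a ubiquitin ligase for activated receptors, had 88.4 and 52.4 CPM (0.76, edgeR adjusted p = 3.11e-12). VAV2, a guanine nucleotide exchange factor that binds activated Eph receptors, had 37.8 and 96.9 CPM (-1.35, edgeR adjusted p = 2.44e-16). APH1A, a subunit of gamma-secretase, had 145 and 312 CPM (-1.10, edgeR adjusted p = 9.01e-16). All 5 genes for shedding and gamma-secretase cleavage were called, 4 lower and 1 higher.

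In NFS1 against NC, 12 of the 50 were higher (24%) and 7 lower (14%), against 15.7% and 12.5% of all genes, with a median of 0.07 against 0.02. GRIP1 rose from 1.31 to 3.78 CPM (1.55, edgeR adjusted p = 3.04e-05), and VAV2 rose from 37.8 to 53.7 CPM (0.52, edgeR adjusted p = 0.000101). CHN1 fell from 3.63 to 1.62 CPM (-1.14, edgeR adjusted p = 5.12e-05). NCK2, an adaptor between receptors and the actin machinery, fell from 22.6 to 15.2 CPM (-0.55, edgeR adjusted p = 0.000129). With length and GC offsets the number lower was 11.

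**Figure D4:**
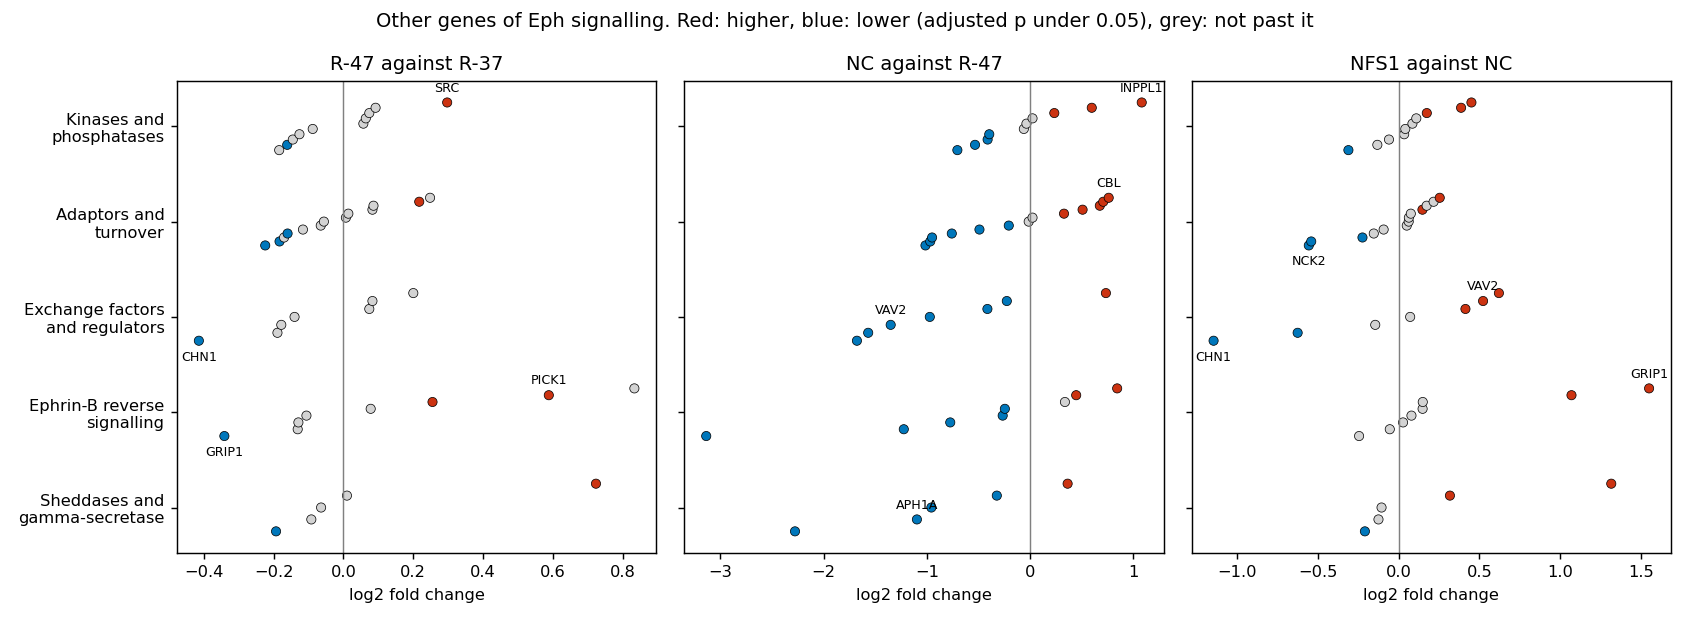
Log2 fold change of 43 of the 50 tested genes of Eph and ephrin signalling by role in the 3 contrasts, each on its own scale; red is higher and blue lower at an adjusted p under 0.05, and grey did not pass. On heating 5 of those drawn are red and 7 blue, in NC against R-47 12 and 25, and in NFS1 against NC 12 and 7.

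The genes whose levels followed EPHB2 most closely were TSPAN14, DUSP5, DOCK1, CRACD and TGFA, out of 10759 genes considered. Their Pearson r with EPHB2 over log2 CPM of the 20 libraries was 0.989, 0.984, 0.983, 0.983 and 0.982. The libraries form 4 groups, so r mostly describes the order of group means. After subtraction of group means it was 0.33, 0.34, 0.53, 0.05 and 0.29. TGFA, a ligand of the EGF receptor, had 36.4 ± 2.49 CPM in R-37, 38.2 ± 3.61 in R-47, 3.19 ± 0.400 in NC and 10.6 ± 1.58 in NFS1 (SD, n = 5). DOCK1, an exchange factor for Rac, had 71.0 ± 1.01, 73.0 ± 4.41, 11.7 ± 0.823 and 27.7 ± 2.44 CPM in the same order.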

How the data were processed

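Polyadenylated RNA was extracted with TRIzol and made into libraries with a VAHTS kit, per the labels' protocols. The submitters' processing notes name fastp, HISAT2, HTSeq and the build hg38, with no versions or settings, and the sources used here do not state whether counting used strand. A deposited count table holds whole-number counts per gene symbol. The deposited FPKM table holds the same counts divided by gene length and library total. It was used for levels between genes and for alternatives.

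Counts were tested with edgeR 4.0.16 in R 4.3.3 (limma 3.58.1): filterByExpr (minimum count 10, minimum total 15), TMM scaling, quasi-likelihood F test, 2 groups per fit, Benjamini-Hochberg adjustment over all genes tested, threshold 0.05. CPM levels used TMM over the 20 libraries. DESeq2 1.42.0, limma-voom, other scalings and filters, length and GC offsets, log2(FPKM + 1) and log2(FPKM + 0.1) in limma for genes with a mean FPKM of at least 1, log2(FPKM + 1) without that filter, a replicate block and leaving out each library were alternatives. Leaving out the pairs NFS1 replicates 2 and 3, and NC replicate 1 with NFS1 replicate 4, was chosen after seeing the data. The pipeline was tested on simulated data.

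The members, the signalling list, the markers and the motifs were chosen with earlier results of these data known. Named genes are all members, other family genes with at least 1 CPM in a group, the 2 called signalling genes of smallest adjusted p per direction and contrast, the 5 genes most correlated with EPHB2 (log2 CPM with a prior count of 2, mean log2 CPM of at least 2) and NFS1. The genes HSPA6 and VIM were chosen after their values were seen. A further role group of the signalling list enters its counts and is not reported here by itself. GC content came from GENCODE transcripts and covered 88.1 to 90.6% of tested genes. Gene positions and promoters came from RefSeq on GRCh38.p14. Intervals on counts and floors of 3 counts cover counting error only.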

Additional observations from a re-analysis of the deposited data

Results flagged for a closer look

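In 40 groups of 5 libraries, 1 for each of the 10 members in each of the 4 groups of samples, the gap between the most extreme library and its neighbour was compared with Dixon's 95% critical value for 5 samples (0.71 of the range). For normally distributed values, chance alone passes it in about 1 of 20 groups. A group with counts in only 1 library always passes, so that rate does not hold for such groups. EPHA1 in NC replicate 1 passed it, at 0.0525 CPM, from 2 counts while the other 4 NC libraries had 0. EPHA1 in NFS1 replicate 2 passed it as well, at 0.0249 CPM, from 1 count while the other 4 NFS1 libraries had 0. Both values lie at or under the floor of 3 counts, which is 0.075 to 0.079 CPM in these libraries.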

How the results depend on the processing

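Of 779 alternative values for single genes, 747 kept their direction and their side of the threshold or, for the members without a test in NFS1 against NC, moved by less than the spread. Among the latter, values near 0 changed sign: EPHB4 from -0.04 to 0.02 without NFS1 replicate 4, and EPHA2 from -0.08 to 0.01 without NFS1 replicates 2 and 3. Of 246 alternative values for counts of genes and for EPHB2 in NFS1 against NC, 216 stayed within 1.5 times or the spread. In NC against R-47, EPHA4 entered both tallies through its fit, although it has no test there, and EPHB2 was judged by the spread. On heating, the number of members called higher went from 0 to 1, EPHB2, with library size alone, a minimum count of 50, length and GC offsets, DESeq2 and all 3 log2 FPKM settings. It ranged from 0 to 1 when single libraries were left out. Members called lower went from 3 to 5 with the offsets, and from 2 to 4 without single libraries. Signalling genes called higher went from 5 to 11 with library size alone, 9 with the offsets and 8 on unfiltered log2(FPKM + 1). Those called lower went from 10 to 2 with library size alone and in each log2 FPKM setting, and from 3 to 12 without single libraries.

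With a replicate block the heated contrast had 3 signalling genes lower in place of 10. The replicate numbers did not pair the samples: same-numbered libraries had correlations of -0.0664 to 0.097 on heating, -0.011 to 0.145 in NC against R-47 and -0.198 to 0.0584 in NFS1 against NC, and matched their own number best in 2 of 5, 2 of 5 and 0 of 5 cases. EPHA2 changed sign on heating with the offsets (-0.03) and in NC against R-47 with library size alone (0.10), the offsets (0.01) and the 3 log2 FPKM settings (0.10 each). Library size alone moved the median log2 fold change of all genes in that contrast from 0.01 to 0.19. There, EPHB4 was called higher under all 22 alternatives. EPHA4, which has no test there, was removed by the filter with a minimum count of 50 and on filtered log2(FPKM + 1) and log2(FPKM + 0.1). EPHB2 in that contrast was -1.51 on log2(FPKM + 1), filtered or not, and -3.43 on log2(FPKM + 0.1). In NFS1 against NC it was 0.64 on unfiltered log2(FPKM + 1), where the pseudocount is above its level, and the filtered settings gave no value. Without single libraries it ranged from 2.57 to 2.85. Signalling genes lower in NFS1 against NC went from 7 to 11 with the offsets. Unless stated, the cause was not tested. Depth limits EPHA1, EFNB2 and EPHA4, which had few counts in at least 2 groups.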
